A study of Drosophila melanogaster with 2 samples.

Results

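Many genes start transcription at more than a single place. An alternative promoter inside a gene gives a shorter primary transcript with its own first exon, and often a protein with another amino-terminal end, so that a gene can be used differently in different tissues or at different stages. In Drosophila such internal promoters are well known from developmental and hormone-response genes such as Eip75B, whose isoforms begin at separate start sites. The regions described here are the binding peaks of the protein CG15710 that lie at internal promoters of protein-coding genes.

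The deposited list made with an irreproducible discovery rate (IDR) threshold held the 8483 strongest peaks of the pooled replicates. Of these, 594, or 7.0%, lay at an internal promoter (95% exact Clopper-Pearson interval 6.47 to 7.57%, counting error only). A peak was placed by its summit, the base of highest signal. It was a member when its nearest protein-coding transcription start site (TSS) lay within 500 bp and that TSS lay over 500 bp downstream of the most upstream TSS of its gene. Summits between 2 divergent genes that both start within 500 bp were left out. The members made up 20.8% of 2852 summits within 500 bp of a protein-coding TSS. Among the rest, 1393 lay at the first promoter of a single gene, meaning the most upstream TSS or another TSS at most 500 bp downstream of it, 859 lay between divergent genes, and 6 lay at a TSS that was internal to only some of the genes sharing it.

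The chromatin came from whole pupae aged 24 hours, males and females together, of a transgenic line that stably expresses CG15710 with green fluorescent protein (eGFP) at its carboxy-terminal end. All animals carried the fusion and formed a single group, sampled in 2 biological replicates that the labels number 1 and 3. An antibody against GFP precipitated sonicated chromatin, and the bound DNA was sequenced (ChIP-seq). Because whole animals were used, a peak cannot be assigned to a tissue or cell type. With 1 group there was no comparison between groups of animals, and peaks, TSSs and genes are not replicates. The differences below between internal promoters and other promoters are therefore descriptions that were not tested. The value in each replicate is given for many of them but not for all.

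Sequences around some of the summits give examples of such regions. Each is read in the direction of the gene from 120 bases before the summit to 120 bases after it, or to the last base before the TSS where that comes earlier, from the RefSeq copy of genome build dm6. Capitals mark GAGAG or its complement CTCTC, the core of the GAGA element. Shown are larp, papi and Trp1, from the 10 members of highest signal, and all 5 members of Ptpmeg2, the gene with the most. None of these stretches touches an annotated exon.
larp, TSS 10176 bp downstream, chr3R:28326469-28326709, minus strand: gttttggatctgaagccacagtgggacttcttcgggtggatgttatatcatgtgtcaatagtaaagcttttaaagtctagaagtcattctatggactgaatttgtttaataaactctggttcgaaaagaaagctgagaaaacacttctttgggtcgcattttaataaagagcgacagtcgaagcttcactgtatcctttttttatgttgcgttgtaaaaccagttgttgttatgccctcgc
papi, TSS 1341 bp downstream, chr2L:2221669-2221909, plus strand: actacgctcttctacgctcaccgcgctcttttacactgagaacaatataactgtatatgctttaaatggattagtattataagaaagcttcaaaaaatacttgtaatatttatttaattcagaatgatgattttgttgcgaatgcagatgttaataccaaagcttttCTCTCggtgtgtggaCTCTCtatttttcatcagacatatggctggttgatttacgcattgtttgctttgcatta
Trp1, TSS 973 bp downstream, chr2L:10010108-10010348, plus strand: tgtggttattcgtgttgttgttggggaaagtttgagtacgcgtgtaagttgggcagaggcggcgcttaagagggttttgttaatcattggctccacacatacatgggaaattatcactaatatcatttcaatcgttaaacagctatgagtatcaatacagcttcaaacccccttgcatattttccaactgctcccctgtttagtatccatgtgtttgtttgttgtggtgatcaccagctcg
Ptpmeg2, TSS 8369 bp downstream, chrX:9650841-9651081, minus strand: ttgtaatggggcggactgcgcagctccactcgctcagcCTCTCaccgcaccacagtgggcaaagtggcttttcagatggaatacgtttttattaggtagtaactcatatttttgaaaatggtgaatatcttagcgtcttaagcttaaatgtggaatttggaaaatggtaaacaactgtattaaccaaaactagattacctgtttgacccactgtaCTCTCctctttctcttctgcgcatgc
Ptpmeg2, TSS 13220 bp downstream, chrX:9645997-9646237, minus strand: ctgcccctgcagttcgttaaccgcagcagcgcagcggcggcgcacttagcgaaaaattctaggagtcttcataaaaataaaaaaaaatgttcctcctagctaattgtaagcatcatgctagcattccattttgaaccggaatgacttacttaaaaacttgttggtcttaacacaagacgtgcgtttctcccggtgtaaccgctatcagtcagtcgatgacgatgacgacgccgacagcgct
Ptpmeg2, TSS 8920 bp downstream, chrX:9650226-9650382, minus strand: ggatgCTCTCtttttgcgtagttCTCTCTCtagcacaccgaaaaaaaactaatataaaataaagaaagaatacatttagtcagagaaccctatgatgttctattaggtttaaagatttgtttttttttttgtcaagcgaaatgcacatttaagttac
Ptpmeg2, TSS 18521 bp downstream, chrX:9640697-9640937, minus strand: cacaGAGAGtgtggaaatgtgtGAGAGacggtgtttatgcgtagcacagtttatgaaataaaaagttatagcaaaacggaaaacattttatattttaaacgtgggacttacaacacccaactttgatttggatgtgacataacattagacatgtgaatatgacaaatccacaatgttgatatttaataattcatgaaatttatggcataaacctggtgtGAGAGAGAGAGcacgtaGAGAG
Ptpmeg2, TSS 8369 bp downstream, chrX:9651134-9651374, minus strand: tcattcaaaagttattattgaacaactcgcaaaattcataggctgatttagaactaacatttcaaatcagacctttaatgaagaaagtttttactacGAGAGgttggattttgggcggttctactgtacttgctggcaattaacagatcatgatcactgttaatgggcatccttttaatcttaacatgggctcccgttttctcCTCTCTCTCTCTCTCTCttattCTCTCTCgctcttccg

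GAGAG or CTCTC matched 2 times, counting overlapping matches, in the stretch of papi. The stretches of larp and Trp1 held 0 matches. The 5 stretches of Ptpmeg2, a gene for a protein tyrosine phosphatase, held between 0 and 10 matches. G and C made up 30.6% of the Ptpmeg2 stretch at 8920 bp and 46.5% of that at 13220 bp, the lowest and highest of the 8 shown.

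The members reached 490 genes and 563 TSSs. Of 2171 protein-coding genes with at least 1 internal TSS, 22.6% had a member (20.8 to 24.4%). At their first TSSs, 27.7% of the same 2171 genes had an IDR summit within 500 bp (25.9 to 29.7%), as did 22% of all 13945 protein-coding genes. These first TSS counts take any IDR summit, also divergent ones and members, so their criterion is wider than that for members. An IDR summit lay within 500 bp of 20.8% of 3646 internal TSSs and of 23.3% of 15961 first TSSs. A further 27.7% of internal TSSs, against 23.5% of first TSSs, had only a weaker summit of the list called on pooled replicates. No listed summit lay near 51.5% of internal TSSs and 53.2% of first TSSs. Genes with more internal TSSs had a member more often. The share was 13.6% of 1357 genes with 1 internal TSS, 30.2% of 464 genes with 2, 40.9% of 203 genes with 3 and 55.8% of 147 genes with 4 or more.

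Internal promoters with a peak were spread over all distances from the first promoter. The member TSSs lay a median of 4047 bp downstream of the first TSS, with quartiles at 1490 and 13252 bp, against a median of 3298 bp for all annotated internal TSSs. Between 500 and 1000 bp lay 13.5% of the members, against 17.7% of all internal TSSs. Beyond 50000 bp lay 7.91% of the members, against 4.8% of all internal TSSs. The farthest was in kirre, which encodes an immunoglobulin-family adhesion protein of myoblast fusion, 359198 bp downstream, with a signal of 175 in replicate 1 and 59.6 in replicate 3. Signal did not follow this distance (Spearman rho 0.03 over 594 peaks, which share their 2 libraries). The X chromosome held 25.9% of the members (22.4 to 29.6%), against 20.4% of all internal TSSs and 19.4% of all IDR peaks. In lists of the same length from each replicate alone, the X held 24.6% of the members in replicate 1 and 26.2% in replicate 3.

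Summits sat mostly upstream of the internal start sites. The summit was upstream of the TSS for 79.8% of members (76.3 to 83%). The median position of the summit relative to the internal TSS was -195.5 bp, with quartiles at -309.5 and -37.5 bp. In the lists of each replicate alone, 78.1% of summits at internal promoters were upstream in replicate 1, with a median of -184 bp, and 83.5% in replicate 3, with a median of -219.5 bp. By position in the gene, 83.3% of member summits lay in an intron, 16.0% in an untranslated exon and 4 summits in a coding exon. DNA just upstream of an internal TSS lies inside the longer transcript by the class rule. The intron share at internal promoters without a peak was not computed, so these values show no preference for introns.

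First promoters cannot be set beside these values directly, because the rule that leaves out summits between divergent genes takes away mostly upstream summits, 822 at first and 36 at internal TSSs by the nearest TSS. Without those summits, 71.9% of first promoter peaks were upstream. With them kept and placed at their nearest TSS, the upstream share was 80.8% of 630 internal promoter summits (77.5 to 83.8%) and 77.8% of 2215 first promoter summits (76.0 to 79.5%), with overlapping intervals. A like comparison takes only TSSs with no divergent TSS of another gene within 1000 bp upstream, where the rule removes nothing. There 80.5% of 579 internal promoter summits (77.0 to 83.6%) and 77.7% of 1164 first promoter summits (75.2 to 80.0%) were upstream, again with overlapping intervals. The distance differed more than the share, with a median of -201 bp at internal promoters and -132 bp at first promoters. More than 300 bp upstream lay 26.9% of these internal promoter summits and 16.6% of the first promoter summits. At the same TSSs the medians were -190 bp at internal and -118 bp at first promoters in replicate 1, and -225 bp and -146 bp in replicate 3. These comparisons were chosen after the values were seen.

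**Figure D1:**
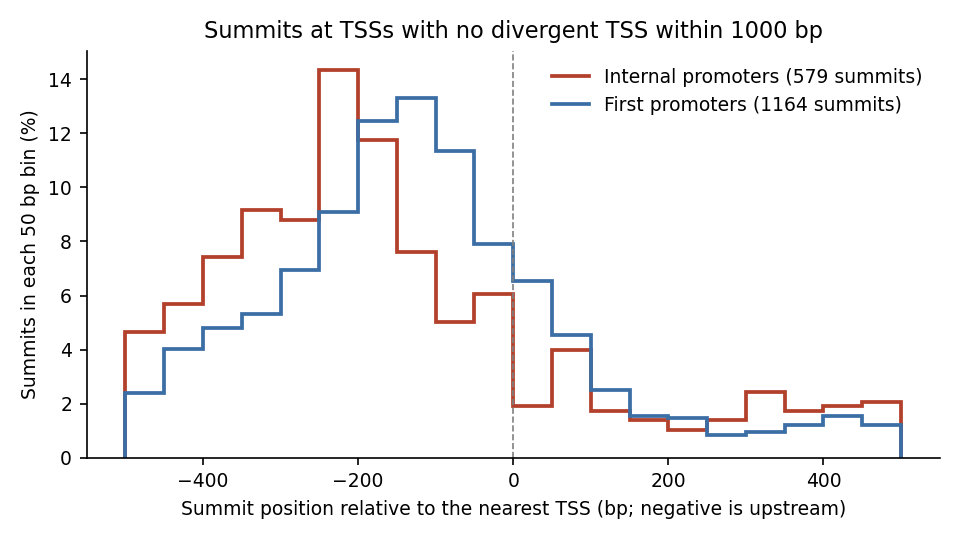
Position of the summit relative to the nearest TSS, in 50 bp bins, as a percent of the summits of each kind (horizontal axis in bp, negative upstream), at TSSs with no divergent TSS of another gene within 1000 bp upstream. The 579 internal promoter summits have a median of -201 bp and the 1164 first promoter summits a median of -132 bp.

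The share of upstream summits was higher among stronger members. Of the 198 strongest members, 85.9% had an upstream summit, at a median of -216 bp. Of the 198 members of middle signal, 80.3% were upstream, at a median of -209 bp. Of the 198 weakest, 73.2% were upstream, at a median of -132 bp. By distance of the internal TSS from the first TSS, the upstream shares were 80.3% of 244 summits at 1000 to 5000 bp, 87.8% of 74 at 5000 to 10000 bp and 81.1% of 196 beyond that. Within 1000 bp the share was 67.5% of 80 summits, but there the rule itself limits it, since a summit far upstream of such a TSS is nearer to the first TSS. The farthest upstream in that range was at -357 bp.

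Some of the highest signals in the whole data set were at internal promoters. The strongest member lay at larp, the gene for a La-related protein that binds RNA and controls translation, with a signal of 4474 in replicate 1 and 2576 in replicate 3, rank 3 and rank 7 of all peaks in those lists. In the IDR list it ranked 4th of 8483, with a signal of 7034, and its summit lay 325 bp upstream of a TSS 10176 bp inside the gene, on chromosome 3R at chr3R:28326269-28326920. The signal is the value the authors gave each peak, in units the sources do not name, and is compared only within a list.

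Proteins of several kinds were represented among the 10 strongest. PNPase, polynucleotide phosphorylase, which degrades RNA in mitochondria, had 3267 in replicate 1 and 2164 in replicate 3. Fkbp14, a peptidyl-prolyl isomerase of the endoplasmic reticulum, had 3353 and 1927. The Polycomb group gene ph-p had 3181 and 2071. The peaks of these genes ranked between 14 and 22 in both replicate lists, so they were near the top in each. ph-p has a near-identical tandem copy, ph-d, which had a member too (291 in replicate 1 and 218 in replicate 3), and reads shared by the copies make both values uncertain. gish, a casein kinase 1 family gene, had 2819 and 1701. papi, a Tudor-domain gene of the piRNA pathway, had 2301 and 1498. Trp1, a gene of protein translocation into the endoplasmic reticulum, had 2150 and 1360. CG1888 had 2441 and 1662. Lpin, the gene for the phosphatidate phosphatase lipin, had 2063 and 1286, and pdgy, an acyl-CoA synthetase gene, had 1884 and 1237. Each of the 10 ranked within the first 89 peaks of both replicate lists.

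As a group the members had somewhat higher signals than the first promoter peaks that the class rule leaves, with wide overlap. In the IDR list the median signal was 356 for members (quartiles 223 and 781), against 294 for first promoter peaks (quartiles 200 and 570) and 329 for all IDR peaks. In replicate 1 the matched peaks of members had a median of 236, against 188 for those of first promoters. In replicate 3 the medians were 144 for members and 119 for first promoters. Of the members, 17.7% were among the 1000 strongest IDR peaks (14.7 to 21.0%), against 12.4% of first promoter peaks and 11.8% of all IDR peaks. Divergent promoters had a higher median in the IDR list, 388. Their matched peaks had a median of 224 in replicate 1, below that of members, and 182 in replicate 3, above it. By the nearest TSS, the rule takes 822 of the divergent summits from first promoters and 36 from internal ones. Medians with those summits kept were not computed, so how far the rule shapes the difference was not tested. The weakest members were 2 summits at 1 TSS of Nost, with 159.1 and 159.3, and 1 at jigr1, with 159.6, at the lower end of the IDR list.

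Most members had a match in both replicates, which the choice of lists largely builds in. The IDR list holds exactly the 8483 strongest peaks of the pooled replicates, so its peaks were kept by pooled signal. Matches were sought in replicate lists of 30000 peaks each. With only the 8483 strongest peaks of each replicate, 79.0% of the 490 member genes were found in both lists. Within 100 bp of the summit, 97.6% of members had a summit of the replicate 1 list and 93.1% one of the replicate 3 list. Both held for 539 members, or 90.7% (88.1 to 92.9%), against 90.1% of first promoter peaks and 92.8% of all IDR peaks, and 0 members had neither. The signals of the 539 had a Spearman rho of 0.82 between the replicates, against 0.76 over 1255 first promoter peaks.

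The 2 replicates weighted internal promoters unequally. Of the 539, 58.3% ranked higher in replicate 1 than in replicate 3, against 53.5% of first promoter peaks, 47.9% of all IDR peaks and 22.5% of divergent promoter peaks. When each replicate's 8483 strongest peaks were used alone, internal promoters made up 7.91% of peaks in replicate 1 and 6.29% in replicate 3. Base composition and signal both moved with this. Members that held more G and C within 50 bp of the summit than the median of 33.7% had a replicate 3 match in 87.5% of 273 cases, against 97.8% of the 321 others. Their matches in replicate 1 were 98.2% and 97.2%. The members with more G and C were also weaker, with a median IDR signal of 253 against 518 for the others. Of the 198 weakest members, whatever their G and C, 97.0% had a match in replicate 1 and 83.8% in replicate 3. The 198 strongest were all matched in each replicate. Eip93F, a transcription factor gene of the ecdysone response, shows the contrast between the replicates. It had a signal of 1007 and rank 445 in replicate 1 but 243 and rank 2131 in replicate 3. Base composition and signal were not separated, and whether either plays a part in the difference between the replicates was not tested.

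**Figure D2:**
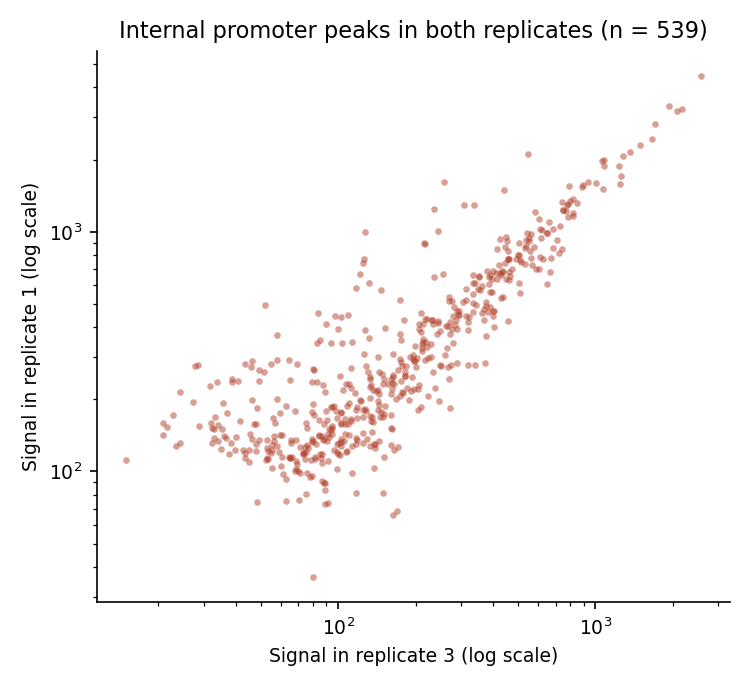
Signal of the matched peak in replicate 1 (vertical) against replicate 3 (horizontal), both on log scales, for the 539 internal promoter peaks with a summit within 100 bp in both lists. The strong peaks lie close to a line and the weak ones scatter, with a Spearman rho of 0.82 overall.

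Most genes with a peak at an internal promoter had none at their first promoter. A separate IDR summit lay within 500 bp of a first TSS in 167 of the 490 genes, or 34.1% (29.9 to 38.5%), against 24.9% of the 1681 genes that have an internal TSS and no member. Members were left out of the first share only, so the criteria are not fully alike. For these genes the first promoter peak is the strongest such summit, which may also lie between divergent genes or nearer to another gene. In 96 of the 167 genes, or 57.5% (49.6 to 65.1%), the strongest internal peak had the higher signal, by over 2 times in 54. The first promoter peak was over 2 times stronger in 38. Genes with several members have more internal peaks to take the strongest from, which favours the internal side. Some genes share both peaks and count separately, such as CG44000 and CG44001. In 141 of these genes all 4 values could be read in the replicate lists. The internal peak was the stronger in both replicates in 73 of them and the first promoter peak in both in 52.

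The genes at each end were far apart. By the ratio of the signals, the internal peak exceeded the first promoter peak most in Trp1, with 3493 at its internal promoter and 220 at its first, a ratio of 15.9. Next were Lpin with 3332 and 231, a ratio of 14.4, and Ptpmeg2 with 2330.0 and 169, a ratio of 13.8. ph-p had strong peaks at both, 5190 at the internal and 3571 at the first promoter. At the opposite end, named after their values were seen, were scb, an integrin alpha subunit gene, and CenG1A. scb had 173 at an internal promoter and 2769 at the first, which was 16.0 times as high. CenG1A had 315 at an internal promoter and 4449 at the first, 14.1 times as high.

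**Figure D3:**
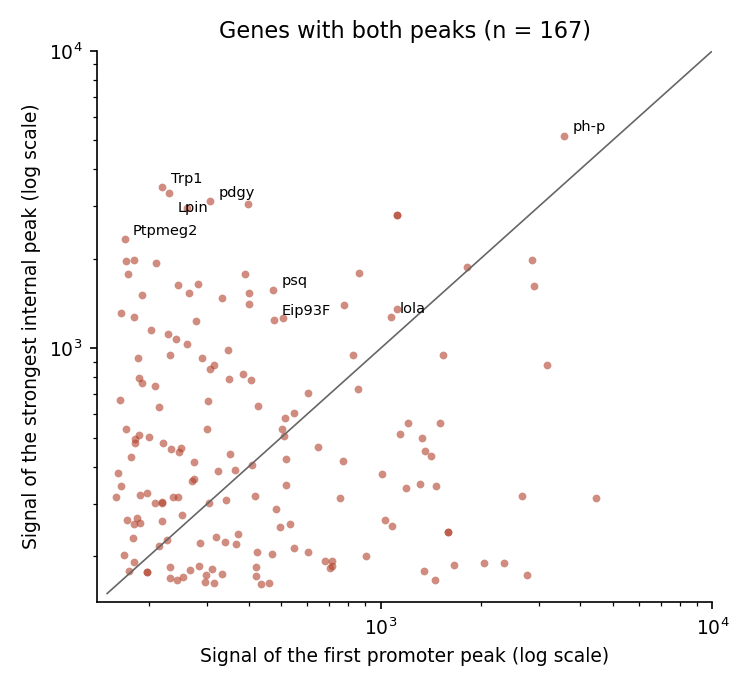
Signal of the strongest internal promoter peak (vertical) against the strongest first promoter peak (horizontal) in the IDR list, both on log scales, for the 167 genes with both. Points above the line, 96 of the genes, have the stronger peak at the internal promoter. The first promoter peak here is any summit other than a member within 500 bp of a first TSS, also one between divergent genes.

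A few genes carried peaks at several internal promoters. Of the 490 genes, 403 had 1 member, 71 had 2, 9 had 3, 6 had 4 and 1 had 5. Summits are not always separate promoters, since 61 members shared their TSS with another member. Ptpmeg2 had 5 members at 4 of its 5 internal TSSs. In order along the gene, for the TSSs at 8369 bp (2 summits), 8920, 13220 and 18521 bp, their signals in replicate 1 were 271, 1549, 992, 1314 and 685. In replicate 3 the first of these summits had no match, and the other 4 had 791, 543, 852 and 433. The first promoter of Ptpmeg2 had a signal of 169 in the IDR list, below each of the internal peaks, which ran from 354 to 2330.0.

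Rtnl1, which encodes a reticulon that shapes the endoplasmic reticulum, had 4 members and no first promoter peak. Replicate 1 gave them signals of 741, 920, 231 and 1595 for the TSSs at 4792, 9350, 10218 and 12339 bp, and replicate 3 gave 444, 539, 110 and 1008. The order of the 4 was the same in both replicates, with the promoter at 12339 bp the highest. bun, a TSC22-family transcription factor gene, had a single strong internal peak at 63022 bp (1203 in replicate 1 and 816 in replicate 3). Its other 3 members were weak summits around 1 TSS at 85355 bp, with 151 to 168 in replicate 1 and 21.6 to 33.3 in replicate 3. Svil, the gene for the actin-binding protein supervillin, had members at 4 of its 15 internal TSSs, with 1154, 512, 243 and 198 in replicate 1 and 782, 277, 151 and 46.1 in replicate 3. PAN3, a deadenylase subunit gene, had members at 4 of 5, the strongest at 10435 bp with 1211 in replicate 1 and 582 in replicate 3. In each of these 5 genes the signal was thus uneven among internal promoters.

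**Figure D4:**
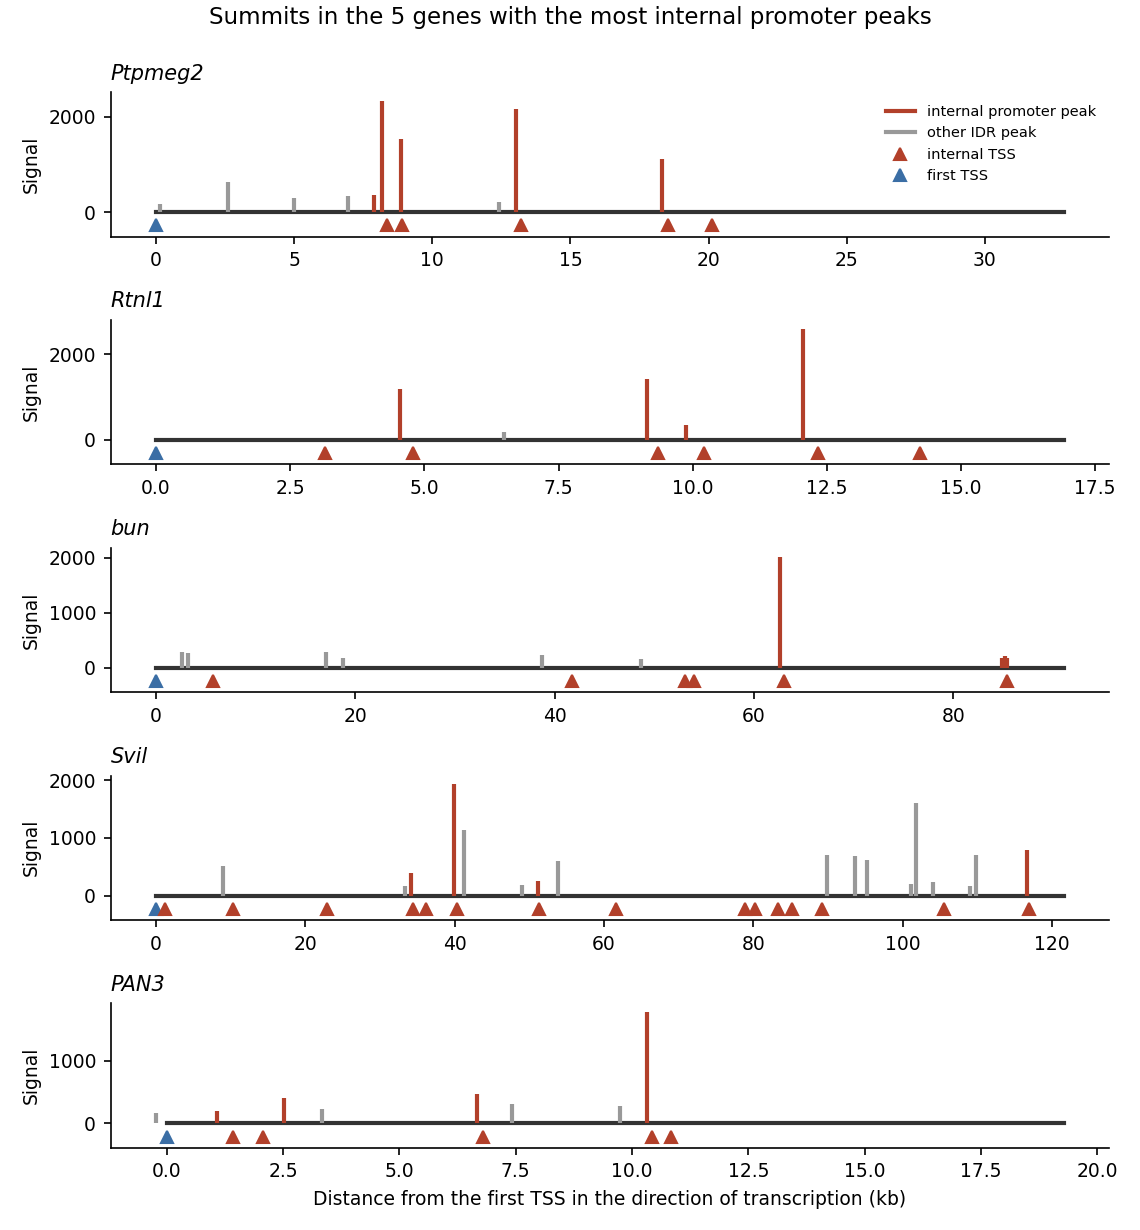
Peak summits (vertical lines, height the deposited signal in the IDR list) along the 5 genes with the most members, by distance from the first TSS in kb, with triangles for annotated protein-coding TSSs. The member peaks, in red, mostly stand just before internal TSSs, and the tallest peak of each gene is at an internal promoter. Each gene also has other IDR peaks that are not members, in grey, with a signal of up to 1610 in Svil.

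Internal promoters can share the start codon of the first promoter or bring another. At 270 of the 563 member TSSs, or 48.0% (43.8 to 52.2%), the annotated transcripts begin translation at a start codon that no transcript of the first promoter uses, against 47.4% of all internal TSSs. At 50.8% they use no start codon beyond those of the first promoter, against 51% of all internal TSSs. Peaks thus fell on promoters of either kind at about the rate at which the annotation holds them. The strongest peaks included larp, gish, Trp1 and Ptpmeg2 among those with another start codon, and PNPase, ph-p, papi and pdgy among those with the same. The transcript that Ensembl marks as canonical starts at 24.0% of member TSSs, against 20.3% of all internal TSSs.

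Among 13 lists of genes, those for BTB and zinc finger transcription factors and for signalling held members most often, and those for ion channels and homeobox factors least often. The figures to read them against are the 22.6% of all genes with an internal TSS that had a member, and the rise of that share with the number of internal TSSs. No list was tested, and several hold few genes with an internal TSS. Of 9 BTB and zinc finger transcription factor genes with an internal TSS, 7 had a member (77.8%, 40.0 to 97.2%), with a median of 3 internal TSSs each against 1 over all genes. psq had signals of 1289 in replicate 1 and 308 in replicate 3, lola had 735 and 533, and Trl, the gene for GAGA factor, had 444 and 398. The others were fru, ttk, br and jim. With replicate 1 or 3 alone the count was 7 or 6.

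Of 17 ecdysone response genes, the hormone pathway that drives metamorphosis, 8 had a member (47.1%, 23 to 72.2%), with a median of 2 internal TSSs. Eip75B, a nuclear receptor gene, had 938 in replicate 1 and 553 in replicate 3 at a TSS 64875 bp inside the gene. Eip93F had the values given above. Eip74EF, an ETS-domain transcription factor gene, had 215 in replicate 1 and no match in replicate 3. EcR, the ecdysone receptor gene, tai, br, kay and MsrA also had members, all with an IDR signal of at most 413. The count was 11 in replicate 1 alone and 6 in replicate 3 alone.

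Of 21 genes of the Notch, Wnt, EGFR, Hippo and Dpp pathways, 11 had a member (52.4%, 29.8 to 74.3%), with a median of 2 internal TSSs. The kinase gene sgg, the fly GSK3, had 1348 in replicate 1 and 797 in replicate 3. The Notch inhibitor gene numb had 1163 and 817, and bun had the values above. The count was 16 in replicate 1 alone and 9 in replicate 3 alone. Among 11 kinase genes 4 had a member, among them for, a cGMP-dependent kinase gene, with 897 and 505, and Pkn with 486 and 282. Of 6 insulin and nutrient genes only InR, the insulin receptor gene, had one, with 158 and 107. The count was 2 in replicate 1 alone and 1 in replicate 3 alone.

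RNA-binding and splicing regulators had members in 10 of 21 genes, led by larp, then Syp with 890 in replicate 1 and 218 in replicate 3, and pAbp, the poly(A)-binding protein gene, with 395 and 152. Cytoskeleton genes had them in 9 of 24. Fim, the gene for the actin bundler fimbrin, had 534 and 437. sqh, the myosin regulatory light chain gene, had 578 and 350, and capu, a formin gene, had 511 and 306. In the adhesion and axon guidance list 6 of 15 had a member, led by the netrin receptor gene unc-5 with 803 and 501. Nrx-1, the neurexin gene, had no match in replicate 1 and 212 in replicate 3, and Ptp99A had 169 and 136. Among chromatin genes 5 of 10 had one, namely ph-p, ph-d, HmgD, HmgZ and BEAF-32. That count was 6 in replicate 1 alone and 2 in replicate 3 alone, so it rests on replicate 1.

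Lists at the other end had a single gene with a member each, and these counts changed with the replicate. With replicate 1 alone and replicate 3 alone they were 1 and 0 for ion channel and synaptic genes, 2 and 1 for sarcomere genes, 2 and 1 for homeobox and patterning genes, and 0 and 1 for ribosomal protein genes. In the IDR list, 1 of 17 ion channel and synaptic genes had a member, the potassium channel gene Irk1, with 160 in replicate 1 and 32.0 in replicate 3. This is 5.88% (0.149 to 28.7%), with a median of 2 internal TSSs, as in the signalling list. 1 of 11 sarcomere genes had a member, the tropomyosin gene Tm1 with 142 and 110. 1 of 13 homeobox and patterning genes had a member, Antp with 100.7 and 67.7. 1 of 5 ribosomal protein genes with an internal TSS had a member, RpL17 with 94.8 and 77.9. All 4 had signals in the weaker part of the IDR list, at ranks from 5705 to 8201. At their first promoters 63 of 78 ribosomal protein genes had an IDR summit, against the 22% of all genes, and 1 of 30 ion channel and synaptic genes had one.

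The DNA at the summits was rich in A and T. Within 50 bp of a member summit the DNA held a median of 33.7% G and C, against 34.7% at first promoter summits and 30.7% over all IDR peaks. In the lists of each replicate alone, the medians at internal and first promoter summits were 34.7% and 35.6% in replicate 1. In replicate 3 they were 30.7% and 32.7%. Read along the gene, the mean over the members of the IDR list was 35.1% at the summit, 42.2% at 150 bp before it and 44.8% at 150 bp after it. Upstream of the summit, internal promoters had more G and C than first promoters, with means of 42.7% and 38.4% at 200 bp before it. Stronger members had less G and C at the summit (Spearman rho -0.40 over 594 peaks of shared libraries).

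The GAGA element was common around internal promoters with a peak. GAGAG or CTCTC occurred between 250 bp upstream and 50 bp downstream of 64.3% of the 563 member TSSs (60.2 to 68.3%), against 43.2% of the 2886 internal TSSs with no IDR summit within 500 bp. First TSSs with a first promoter peak had it in 40.0%, and those with no IDR summit in 30.2%. Over all annotated promoters of this length the share was 46.6% of internal and 30.2% of first TSSs. Median G and C in this window was 45.2% at member TSSs and 43.9% at internal TSSs without a summit. With replicate 1 alone the shares were 65.7% of member TSSs and 42.4% of internal TSSs without a summit, and with replicate 3 alone 61.1% and 44.2%.

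The element was less frequent at the summit than 150 bp to either side of it, but farther out its share was lower again. Matches were found within 50 bp of 16.8% of member summits, in 29.6% of windows of the same length centred 150 bp before them and in 28.6% of those 150 bp after them. First promoter summits had the same form at a lower level, 12.3% at the summit, 17.9% before and 19.9% after. The value at the summit depended on the replicate, at 20.4% with replicate 1 alone and 11.2% with replicate 3 alone. Members with a match at the summit had a replicate 3 match in 85.0% of 100 cases, against 94.7% of the 494 others. Those 100 were also weaker, with a median IDR signal of 265 against 381.

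**Figure D5:**
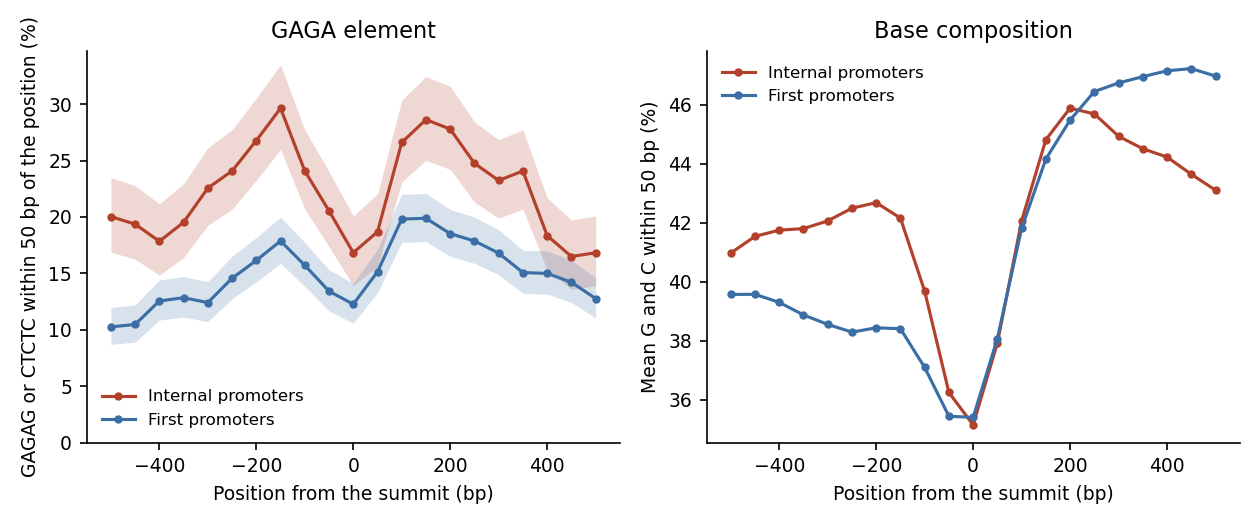
Left, percent of regions with GAGAG or CTCTC within 50 bp of each position, by distance of the position from the summit in bp along the gene, with 95% exact intervals shaded; right, mean G and C content of the same windows. At internal promoters the element falls to 16.8% at the summit between 29.6% and 28.6% at 150 bp on each side, and G and C fall to 35.1% at the summit.

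Of the elements known from broadly active promoters, the DNA replication-related element and Ohler motif 1 matched fewer member TSSs than first TSSs with a peak. The DNA replication-related element (DRE), TATCGATA, matched 0 of 594 member summit windows. This allows a share of up to 0.505% by 3 counts of 594 or 0.619% by the exact interval. The DRE matched 0.955% of the windows of all IDR peaks, 2.23% of first promoter and 4.54% of divergent promoter windows. With replicate 1 alone the share at internal promoter summits was 0.149%, and with replicate 3 alone 0.187%. In the window around the TSS the DRE matched 0.710% of member TSSs, 2.04% of internal TSSs without a summit and 9.28% of first TSSs with a peak. Over all annotated promoters of this length it matched 2.06% of internal and 9.34% of first TSSs. Ohler motif 1, searched as GGTCACAC, matched 2.13% of member TSSs and 9.28% of first TSSs with a peak, and 1.87% of all internal and 7.83% of all first TSSs. CGATA, the core bound by BEAF-32 and contained in the DRE, matched 31.4% of member TSSs, 36.8% of internal TSSs without a summit and 46.6% of first TSSs with a peak. Over all annotated promoters it matched 36.6% of internal and 47.9% of first TSSs. The palindromic E-box CAGCTG showed no such order, with 20.4% of member TSSs (17.2 to 24.0%), 16.1% of internal TSSs without a summit and 19.3% of first TSSs with a peak (17.2 to 21.5%).

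Other elements differed less or followed the annotation. A CA repeat, searched as CACACACA, matched 14.6% of member TSSs, 10.6% of internal TSSs without a summit and 7.11% of first TSSs with a peak. TATAAA matched 26.6% of member TSSs (23 to 30.5%), 30.5% of internal TSSs without a summit and 42.4% of first TSSs with a peak. The initiator core TCAGT matched 55.8%, 53.8% and 53.7% in the same order. GATAA matched 41.4%, 49.3% and 52.2%. Over all annotated internal and first TSSs the shares were 11.2% and 4.50% for the CA repeat and 30.3% and 45.0% for TATAAA. They were 53.9% and 51.8% for TCAGT, and 48.1% and 55.0% for GATAA. All motifs were searched on both strands, and a match shows that the letters are present, not that a factor binds.

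Strong and weak peaks lay on each side of the 500 bp limits. The members with summits farthest from their TSS were at par-1, 500 bp away with a signal of 169, and, all 499 bp away, at Btk with 1092, alpha-Est10 with 446, Fim with 233 and CG31523 with 172. Just outside were summits just beyond the limit from internal TSSs of CG6891, with 1306, and Hsp22, with 523. The member TSSs nearest to the first TSS were those of CanA-14F, at 507 bp with a signal of 179, and l(3)L1231, at 519 bp with 1314. Counted as first promoters were peaks at TSSs of CG9849, at 497 bp with 446, and isoQC, at 496 bp with 583.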

How the data were processed

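The deposited files were 4 peak lists on build dm6: replicate 1, replicate 3, both pooled, and the IDR list, which held exactly the 8483 strongest pooled peaks. The deposited signal is the authors' value for each peak on an unstated scale. Which aligner, peak caller and IDR threshold were used is not given in the sources used here. An input of unknown kind also entered the first 3 lists, each of 30000 peaks, per the notes deposited with them. A control was not analysed here. Without read counts the depth is unknown. The number of columns of unmatched samples was 0.

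Summits were read as start plus offset, with offsets from 1 to the peak width and therefore 1-based. Genes and TSSs came from Ensembl release 115 on the 6 arms, and sequence from RefSeq's copy of the assembly. Python 3.11.15, numpy 2.4.6, scipy 1.17.1 and matplotlib 3.10.9 were used. A sequence of a further strong member is not reported here. Placing and motif search were tested on simulated data. Genes were named by rule: the 10 strongest members, the 5 genes with the most members, the member farthest from its first TSS, up to 3 of each list by signal, the weakest members and those nearest the limits. Regions, lists and motifs were chosen with earlier results of these data known. Alternatives were other windows, limits, tie rules, merged peaks, the 50% of peaks of highest signal, RefSeq genes and each replicate alone.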

Additional observations from a re-analysis of the deposited data

How the results depend on the processing

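Of 64 values recomputed for the 8 main results under alternative settings, 43 stayed within the 95% interval of the value reported, or within 1.5 times for counts of genes. For the rest the cause was not tested. The share of IDR peaks was 4.09% with a window of 250 bp, 9.63% with 1000 bp and 6.06% for TSSs over 1000 bp downstream, and ran from 6.29 to 7.91% when 1 replicate was left out. The RefSeq annotation gave the same 7.0% and 490 genes. The gene count was 319 with 250 bp and 276 with the 50% of peaks of highest signal, and 453 to 533 with 1 replicate left out. The upstream share was 72.8% with 1000 bp and 84.4% with the stronger 50%, and 78.1 to 83.5% with 1 replicate left out. Chosen after seeing the data, keeping summits between divergent genes gave upstream shares of 80.8% at internal and 77.8% at first promoters, and TSSs with no divergent TSS gave 80.5% and 77.7%, against 79.8% and 71.9% reported. The first promoter share was 67.0 to 78.9% with 1 replicate left out. The median signal of the stronger 50% was 736 by construction. Matches in both replicates were 97.5% in the stronger 50% and 96.3% within 200 bp. Genes with a first promoter peak too were 26.6% with 250 bp, 44.4% with 1000 bp and 17.8% in the stronger 50%, where fewer first promoter peaks are left to count, and 32.0 to 35.3% with 1 replicate left out. Another start codon was found at 42.8% of TSSs with 250 bp, and at 47.0 to 47.9% with 1 replicate left out. GAGAG at the summit was found in 13.7% of the stronger 50%, in 32.7% within 100 bp, and in 11.2 to 20.4% with 1 replicate left out. GAGAG near the member TSSs, recomputed by a choice made after seeing the data, was 61.1 to 65.7% with 1 replicate left out. Median signal and matches in both replicates were not computed from a single replicate's list, whose scale differs. No paired analysis was possible because there was 1 group and no test. The number of peaks and genes, not the unknown read depth, sets the width of the intervals.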

Other observations

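Members with a summit in an untranslated exon differed from those in introns in several values. Over the 95 in an untranslated exon the median signal was 283, against 383 for the 495 in an intron, and the median G and C content at the summit was 39.6%, against 31.7%. Of those matched in both replicates, 67.5% of 83 ranked higher in replicate 1, against 56.3% of 453 in introns. Both intervals overlap (56.3 to 77.4% and 51.6 to 60.9%). Members with the summit at or downstream of the TSS had a median signal of 282, against 384 for those upstream.

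Of the genes with an internal promoter peak in the IDR list, 466 (95.1%) were also found from the strongest replicate 1 peaks alone, 409 (83.5%) from replicate 3 alone and 387 (79.0%) from both. A noncoding TSS lay within 500 bp of 3.70% of member summits and 6.68% of first promoter summits. Within 500 bp of 3 members another coding gene had its first TSS, and 22 members also lay within 500 bp of a first TSS of their own gene.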
